A study of Mus musculus with 4 samples.

Results

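The olfactory receptor genes with reads in F123-ESCs were defined as the genes named Olfr and a number that were above 0 in at least 2 of the 8 allele columns of the RNAseq table. Of 1100 such Olfr genes, 133 (12.1%) met this rule, 138 (12.5%) were above 0 in exactly 1 column and 829 (75.4%) were at 0 in all 8 columns. Over all 24026 genes of the table, 80.5% were above 0 in at least 2 columns, and the Olfr genes made up 21.9% of the 3783 genes at 0 in all columns. The members were selected on their measured RPKM, so their levels are given as a description, without a test. F123-ESCs are male mouse embryonic stem cells from an F1 cross with a maternal S129 genome and a paternal CAST genome. All 4 libraries are replicates of the untreated line, in a single group, so there is no treated, mutant or wild-type sample to compare them with. The cells were grown with LIF on inactivated embryonic fibroblasts and then passaged without these feeders on gelatin. The labels do not say whether the replicates came from separate cultures, so the SD and the p-values measure the spread between these libraries, which may be technical.

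Olfactory receptors are G-protein-coupled receptors that bind odorants in the cilia of olfactory sensory neurons in the nose. They form the largest gene family of the mouse genome and lie in clusters on most chromosomes, usually with their whole coding sequence in a single exon. Each mature sensory neuron expresses a single receptor from a single allele, while the remaining receptor genes are kept silent in heterochromatin. Embryonic stem cells do not smell, and the family is commonly taken as an example of genes that are silent outside the olfactory epithelium.

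The labelled cell type was checked against markers. All 8 of 8 pluripotency genes were above 1 RPKM, with a median of 104.7 RPKM and Pou5f1, the core pluripotency factor, at 29.5 ± 4.1 RPKM (SD, n = 4 libraries). Of 8 markers of mature olfactory sensory neurons, 1 reached 1 RPKM and their summed level ranged from 3.44 to 3.69 RPKM between libraries. Of 5 markers of immature olfactory neurons, 2 reached 1 RPKM and the sum was 17.6 to 21.4 RPKM. Most of it was Gap43, a growth cone protein, at 16.7 ± 1.6 RPKM (SD, n = 4). Ncam1 was at 2.58 RPKM, while Gng8, Lhx2 and Dcx were at 0.433, 0.135 and 0.0046 RPKM. Of the 8 mature markers, Adcy3 was highest at 1.38 ± 0.13 RPKM, followed by Omp at 0.809 ± 0.16 RPKM (SD, n = 4). Gng13 and Gnal had 0.701 ± 0.10 and 0.426 ± 0.0057 RPKM (SD, n = 4). The lowest were Cnga2, the channel subunit that odorants open, and Rtp1, which carries receptors to the surface. They were at 0.0028 ± 0.0057 and 0.010 ± 0.012 RPKM (SD, n = 4). Among 8 markers of the feeder fibroblasts, 6 were at 1 RPKM or more, with a sum of 165.5 to 211.1 RPKM. Most of it was Col1a2, a collagen chain, at 165.8 ± 17.5 RPKM (SD, n = 4). Col1a2 had 180.3 RPKM on S129 and 151.2 RPKM on CAST. The next highest was Col3a1 at 11.4 ± 1.5 RPKM (SD, n = 4), while Dcn and Lum were at 0.659 and 0.046 RPKM. Whether feeder cells gave these reads was not tested. Of 6 primitive endoderm markers, 3 reached 1 RPKM, namely Dab2 at 44.2 ± 2.9, Pdgfra at 3.31 ± 0.25 and Gata4 at 1.03 ± 0.11 RPKM (SD, n = 4), and Sox17, Sox7 and Foxa2 were at 0.189 to 0.326 RPKM, for a sum of 45.2 to 52.4 RPKM. Of 6 genes of the early cleavage embryo, 1 reached 1 RPKM, Zscan4d at 2.52 ± 0.085 RPKM (SD, n = 4), 2 were at 0 and the sum was 3.19 to 3.45 RPKM. The part of these cells in the Olfr reads was not tested. In bulk RNA, few cells with more of a transcript and many cells with little of it cannot be told apart.

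The values are RPKM, reads scaled by transcript length and by the total of the column, from reads that cover a SNP between the strains and could be assigned to an allele. Totals of assigned reads ranged from 16716722 to 28772352 per allele and library. A single read on a transcript of 1000 bp therefore stood for 0.0348 to 0.0598 RPKM, and 0 reads in all 8 columns together allow up to 0.0159 RPKM for a transcript of that length, for counting error only. A gene with few SNPs between the strains can hold transcripts that are not counted, so a value of 0 does not show that a gene is silent. Because each value is a whole number of reads divided by length and total, the reads behind all 133 members could be read back.

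The upstream DNA of 4 spliced members is shown because receptor promoters are bound by EBF and LHX2 in sensory neurons, and because these members have a start that lies apart from the coding sequence. Among the 133 members, 117 had a promoter window in RefSeq (GRCm38.p6, 250 bases before to 50 bases after the start), but in 61 of them the listed start was the start of the coding sequence. The 4 below had a start 3225 to 11048 bases before the coding sequence, no annotated exon in the 250 bases before it, and a rank among the 40 highest members. They are Olfr287 (chr15:98221057-98221306, minus strand), Olfr70 (chr4:43700808-43701057, minus strand), Olfr224 (chr11:58570569-58570818, minus strand) and Olfr212 (chr6:116506266-116506515, plus strand), each written 5′ to 3′ and ending at the base before the start. Capitals mark a match on either strand to TCCCNNGGG (the core of the EBF site), TAATTA or TAATGA (LHX sites) or TATAAA (the TATA box).
Olfr287: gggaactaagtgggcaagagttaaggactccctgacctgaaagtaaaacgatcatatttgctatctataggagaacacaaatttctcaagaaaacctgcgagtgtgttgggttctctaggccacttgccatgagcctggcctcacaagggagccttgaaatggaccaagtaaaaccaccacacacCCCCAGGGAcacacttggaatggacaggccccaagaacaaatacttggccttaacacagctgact
Olfr70: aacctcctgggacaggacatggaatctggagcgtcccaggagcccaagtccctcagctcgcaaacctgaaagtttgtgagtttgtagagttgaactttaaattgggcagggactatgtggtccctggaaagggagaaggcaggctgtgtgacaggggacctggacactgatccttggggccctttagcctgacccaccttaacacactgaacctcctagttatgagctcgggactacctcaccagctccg
Olfr224: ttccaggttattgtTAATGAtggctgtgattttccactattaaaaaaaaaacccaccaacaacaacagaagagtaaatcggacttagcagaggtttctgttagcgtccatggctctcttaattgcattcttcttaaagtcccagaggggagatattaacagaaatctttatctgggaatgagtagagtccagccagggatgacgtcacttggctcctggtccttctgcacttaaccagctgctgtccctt
Olfr212: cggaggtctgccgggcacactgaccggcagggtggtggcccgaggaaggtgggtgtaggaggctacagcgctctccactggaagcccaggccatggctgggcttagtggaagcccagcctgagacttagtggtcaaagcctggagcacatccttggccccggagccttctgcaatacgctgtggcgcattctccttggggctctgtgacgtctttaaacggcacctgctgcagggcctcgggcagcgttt
Olfr287 holds the EBF core 65 bases before its start, Olfr224 holds TAATGA 236 bases before it, and the other two windows hold none of the 4 motifs.

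Over whole windows of 300 bases, searched on both strands, each of the 4 motifs was found in members and in Olfr genes at 0. The EBF core was found in 5 of 117 member windows (4.27%), in 13 of 698 windows of Olfr genes at 0 in all columns (1.86%) and in 6.43% of all 27025 promoters in the table. TAATGA was found in 28.2% of member windows, 28.8% of windows of genes at 0 and 9.99% of all promoters, and TAATTA in 15.4%, 19.9% and 5.31%. The TATA box was found in 30.8% of member windows, 43.0% of windows of genes at 0 and 14.2% of all promoters. A window can hold more than 1 motif, and where the listed start is the coding start these letters do not belong to a promoter. The shares describe the windows and were not tested.

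No Olfr gene reached a mean of 1 RPKM, and most members rested on a handful of reads. The median of the members' means over the 8 columns was 0.0142 RPKM (quartiles 0.00719 and 0.0375), against 0.975 RPKM over all genes of the table. Behind these means stood a median of 8 reads per member over all 8 columns, with 81 of 133 members at 10 reads or fewer and 9 above 50 reads. A mean of at least 0.1 RPKM was found for 13 members, and a mean of at least 0.5 RPKM for 2. These 2 members, Olfr985 and Olfr1494, held 540 of the 2538 member reads (21.3%), and the 15 highest held 52.2%. The lowest means were those of Olfr46 and Olfr536, with 2 reads each, while Olfr160 and Olfr323, near the median, had 5 and 4 reads.

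The genes on either side of the rule's threshold overlapped in their values. The 40 members above 0 in exactly 2 columns had 2 to 9 reads (median 3) and means of 0.00131 to 0.126 RPKM (median 0.00624). The 138 genes above 0 in exactly 1 column had 1 to 8 reads (median 1) and means of 0.000645 to 0.0371 RPKM (median 0.00274), and held 204 of the 2742 Olfr reads (7.44%). The highest of them, Olfr471 on chromosome 7, had 8 reads in the S129 column of replicate 1 and none elsewhere.

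Olfr985, a receptor gene of the chromosome 9 cluster (ENSMUSG00000049073; chr9:40126308-40130184, minus strand, GRCm38), was the highest member. In replicates 1 to 4 it had 69, 42, 44 and 21 S129 reads and 69, 56, 36 and 19 CAST reads. This came to 1.28, 0.871, 0.954 and 0.642 RPKM on the S129 allele and 1.32, 1.21, 0.811 and 0.605 RPKM on the CAST allele. The ranges of the alleles overlapped almost fully, and replicate 4 was lowest on both. Its mean of 0.961 ± 0.283 RPKM (SD, n = 4) placed 12040 of the 24026 genes above it, near the middle of all genes.

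Olfr1494 on chromosome 19 was second, and all of its reads were S129 reads. It had 73, 50, 39 and 22 S129 reads in replicates 1 to 4, or 1.75, 1.34, 1.09 and 0.871 RPKM, and 0 CAST reads in each. Its mean of both alleles was 0.632 ± 0.188 RPKM (SD, n = 4). From the reads of all columns pooled, the exact 95% Poisson interval was 0.576 to 0.774 RPKM, below the 0.900 to 1.11 RPKM of Olfr985. Both intervals cover counting error only. The library values ranged more widely, from 0.435 to 0.874 RPKM for Olfr1494 and from 0.624 to 1.30 RPKM for Olfr985. With the length of all annotated exons, the mean of Olfr1494 was 0.425 RPKM.

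The members ranked below them rested on fewer reads, at most 25 in a column for those given here. Olfr503 on chromosome 7 had 21, 9, 11 and 6 S129 reads and 3, 9, 9 and 7 CAST reads, with a mean of 0.407 ± 0.030 RPKM (SD, n = 4). Olfr543, also on chromosome 7, had 7, 8, 8 and 6 S129 reads and 25, 12, 16 and 6 CAST reads, with a mean of 0.313 ± 0.068 RPKM (SD, n = 4). Every CAST value of Olfr543 lay above every S129 value. In replicate 4, with 6 reads on each allele, only the smaller CAST total (16716722 against 17403695 reads) set them apart. Olfr287 on chromosome 15 had 13, 17, 17 and 11 S129 reads, and its CAST allele had 1 read, in replicate 3. Olfr692 on chromosome 7 had 3, 3, 3 and 10 S129 reads and 5, 2, 10 and 1 CAST reads, so that its highest S129 and highest CAST columns came from different libraries. Olfr986, beside Olfr985, had 17, 4, 10 and 14 S129 reads and 11, 9, 20 and 13 CAST reads.

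**Figure D1:**
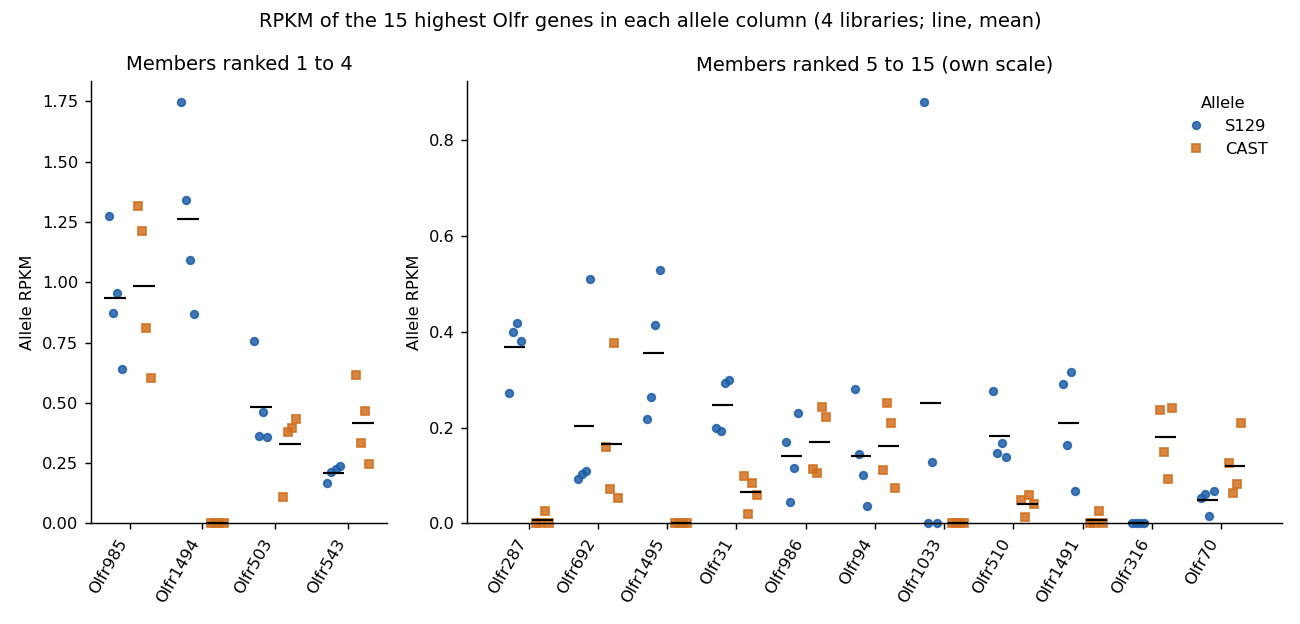
Allele RPKM (vertical axis) of the 15 members with the highest mean, ordered by mean along the horizontal axis, for the S129 (circles) and CAST (squares) columns of the 4 libraries, with a line at each mean; the left and right panels have their own scales. Olfr985 has values of 0.605 to 1.32 RPKM on both alleles, whereas Olfr1494 and Olfr1495 have all CAST points at 0 and Olfr316 has all S129 points at 0.

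Of these 15 members, Olfr1033 on chromosome 2 rested mostly on a single library. It had 8 S129 reads in replicate 1, 1 in replicate 3 and 0 in the 6 other columns. Its deposited RPKM used a transcript of 316 bp, while all annotated exons of the gene span 4261 bp. Its mean was 0.126 RPKM as deposited, 0.0215 RPKM without replicate 1 and 0.00935 RPKM with the full exon length.

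Of the 15 highest members, 2 share exonic bases with another annotated gene. Olfr287 shares 290 exonic bases with Gm44579, a protein-coding model on the same strand. Olfr31 on chromosome 14 shares 951 exonic bases with Gm48860, an antisense RNA on the opposite strand. The paper names a stranded mRNA kit for the libraries, but whether reads were counted by strand is not given in the sources used here. From the RPKM values alone it cannot be told whether reads of the partners in these overlaps are among those of the receptors. Other neighbours lay close without shared exons. Rrm1, a subunit of ribonucleotide reductase, ends 6.81 kb from Olfr543 and was at 39.9 ± 5.1 RPKM (SD, n = 4). Fam160a2, at 3.10 ± 0.29 RPKM, lies 1.86 kb from Olfr692, and Zfp202, a zinc finger gene at 2.90 ± 0.21 RPKM, lies 2.18 kb from Olfr986 (SD, n = 4 each). Il3ra, the interleukin-3 receptor alpha chain, at 10.7 ± 0.83 RPKM (SD, n = 4), lies 14.5 kb from Olfr31. Olfr985 and Olfr1494 had no such neighbour above 0 RPKM within 20 kb, and their nearest genes at 1 RPKM or more were 62.1 and 697.7 kb away.

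The summed RPKM of the members was highest in replicate 1. This sum, taken as the mean of both alleles, was 7.29, 5.67, 5.89 and 5.66 RPKM in replicates 1 to 4, or 6.13 ± 0.78 RPKM (SD, n = 4). Scaled to the assigned reads of each library, the members held 14.6, 12.3, 13.1 and 13.5 RPM (13.4 ± 0.95 RPM, SD, n = 4). Which members were seen depended on the library. Members above 0 on either allele numbered 106, 112, 102 and 80 in replicates 1 to 4, and the lowest count was that of replicate 4, with the fewest assigned reads (34120417 against 48178421 to 56627973). Only 54 of 133 members were above 0 in all 4 libraries. The rule kept 110, 103, 114 and 119 genes when replicates 1, 2, 3 and 4 were left out in turn.

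The members above 0 in all 8 columns numbered 11. They were Olfr985, Olfr503, Olfr543, Olfr692, Olfr31, Olfr986, Olfr94, Olfr510, Olfr70, Olfr221 and Olfr193, which lie on chromosomes 4, 7, 9, 14, 16 and 17. Olfr94, in the chromosome 17 cluster beside the major histocompatibility genes, had 24 S129 and 25 CAST reads. Olfr70 had 12 and 27, Olfr221 had 12 and 26, and Olfr193 had 16 and 19. Over the members with at least 5 reads, 19 of 90 had more than 50% of their reads in a single column.

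Allele differences were examined next, since the 2 alleles of each library are the only contrast in the data. Of the member reads, 59.2% came from S129 (1503 of 2538, exact 95% interval 57.3 to 61.1%), with 57.5%, 57.0%, 60.1% and 64.1% in replicates 1 to 4. Of all assigned reads, 50.8 to 51.0% came from S129. A run of 6 neighbouring genes on chromosome 19 held 303 of the S129 reads. Without them, S129 gave 53.7% of the member reads (1200 of 2234, exact 95% interval 51.6 to 55.8%), with 51.3%, 51.3%, 54.6% and 59.9% in the 4 libraries. The intervals cover counting error only. They treat reads as independent, although the pooled genes differ in their allele ratios and RPKM values do not show PCR copies.

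The 6 genes are Olfr1489, Olfr1490, Olfr1491, Olfr1494, Olfr1495 and Olfr1496, which follow each other on the plus strand at chr19:13631621-13782920 and are all members. They were singled out after their values were seen. In replicates 1 to 4 they had 105, 73, 77 and 48 S129 reads and 0, 0, 1 and 0 CAST reads. S129 thus gave 99.7% of the 304 reads (exact 95% interval 98.2 to 100%). Olfr1494 had 184 S129 reads, Olfr1495 67, Olfr1491 36, Olfr1489 10, and Olfr1490 and Olfr1496 3 each. The single CAST read lay in Olfr1491, in replicate 3. The ratio of S129 to CAST was at least 59.1-fold for Olfr1494 and at least 21.5-fold for Olfr1495, taking 3 reads over the 4 libraries as the floor of the CAST allele.

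Around this group the reads were few. The 12 Olfr genes next to it, 6 on either side, had 4 S129 reads and 1 CAST read, too few to compare with the group, and all 56 other Olfr genes of chromosome 19 had 38 S129 and 33 CAST reads. The closest expressed genes that are no chemoreceptors lay far away. Zfp91, 835.5 kb before the group, had 10.2 RPKM on S129 and 10.1 RPKM on CAST, and Tle4, 665.2 kb after it, had 7.69 and 7.02 RPKM. The median S129 share of the 10 expressed genes after the group was 48.6%, and that of the 10 before it was 45.4%, with ranges of 33.4 to 57.7% and 40.6 to 99.3%.

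**Figure D2:**
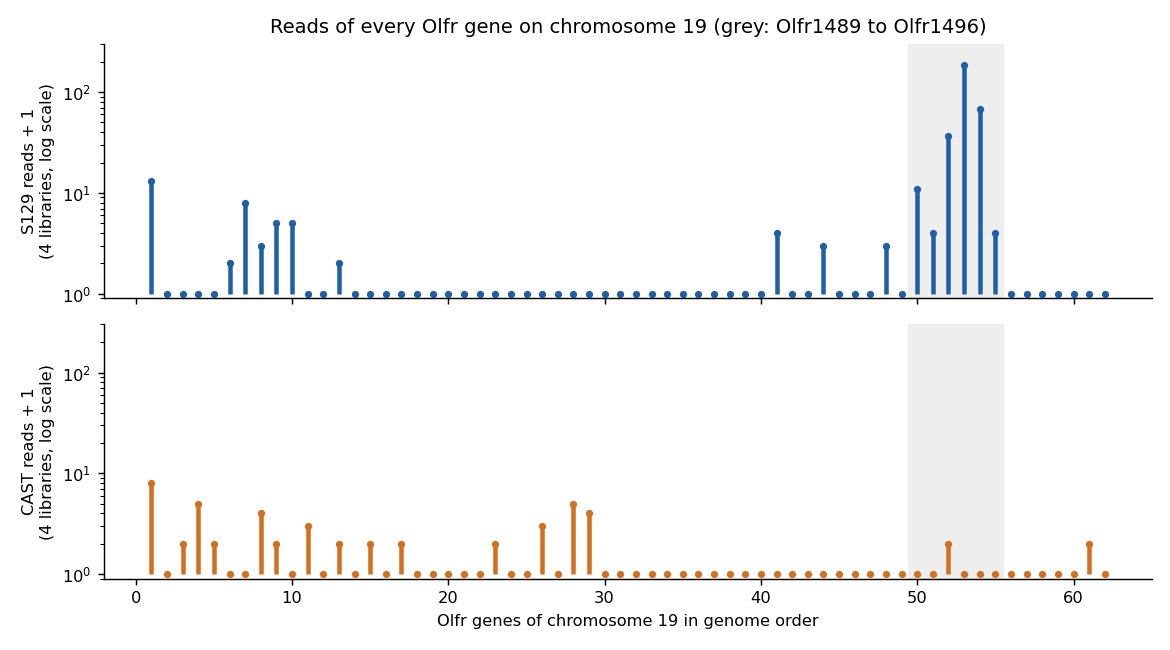
Reads plus 1 over 4 libraries (vertical axes, log scale) of all 62 Olfr genes of chromosome 19 in genome order (horizontal axis), for S129 (top) and CAST (bottom); the grey band marks Olfr1489 to Olfr1496. Within the band the S129 reads reach 184 for Olfr1494 while the CAST panel holds 1 read.

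The coding sequences of the 3 highest genes of this group show how far reads of one can be told from reads of another. Below are the first 90 coding bases of each, from GENCODE M21 transcripts, 5′ to 3′ on the plus strand of GRCm38. They lie at chr19:13749108-13749197 for Olfr1494, chr19:13768344-13768433 for Olfr1495 and chr19:13704829-13704918 for Olfr1491. Capitals mark the bases that differ from Olfr1494, which are 27 in Olfr1495 and 14 in Olfr1491.
Olfr1494: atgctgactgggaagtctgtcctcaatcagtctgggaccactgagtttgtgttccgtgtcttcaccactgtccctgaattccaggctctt
Olfr1495: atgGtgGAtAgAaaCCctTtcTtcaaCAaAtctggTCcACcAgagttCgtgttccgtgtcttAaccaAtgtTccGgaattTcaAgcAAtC
Olfr1491: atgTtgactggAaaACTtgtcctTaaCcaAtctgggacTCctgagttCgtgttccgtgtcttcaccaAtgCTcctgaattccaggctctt
Over the coding sequence, Olfr1494 was 89.2% identical to Olfr1491 and 84.0% identical to Olfr1495 by BLAST, and Olfr1491 and Olfr1495 were 82.2% identical.

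Across the members, the closest other Olfr gene was a median of 88.1% identical over the coding sequence, against 89.3% for the genes at 0 in all columns. At least 95% identity over such a match was found for 29 of all 133 members (21.8%) and for 199 of 828 genes at 0 (24.0%). Among the highest members, Olfr503 was 97.1% identical to Olfr658, itself a member, Olfr287 was 97.1% identical to Olfr288, and Olfr316 was 96.3% identical to Olfr318. The division of reads within such pairs is uncertain. Olfr985 was 70.5% identical to its closest relative, Olfr151.

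Members with all reads from a single allele were found in both directions. Of all members, 31 (23.3%) had S129 reads only, 5 of them in the chromosome 19 group, 19 (14.3%) had CAST reads only and 83 had both. Of the 19344 genes above 0 in at least 2 columns, 3.49% had S129 values only and 1.36% CAST values only, and of the autosomal ones 1.62% and 1.42%. Counting only genes with reads in all 4 columns of an allele and none in the other, 8 members had S129 alone (6.02%), while over all 19344 genes of the table with at least 2 columns above 0 this held for 1.95%, and for 0.408% of the 18630 autosomal ones. They were Olfr1494, Olfr1495 and Olfr1489 of the group above, and Olfr307, Olfr38, Olfr921, Olfr1342 and Olfr968. In the other direction 6 members (4.51%) had CAST alone, against 0.269% of all such genes and 0.279% of the autosomal ones, namely Olfr316, Olfr855, Olfr49, Olfr1350, Olfr466 and Olfr373. The members have far fewer reads than most genes of the table, so the shares under both criteria are given side by side and not compared further.

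Olfr307 on chromosome 7 had 8, 12, 11 and 6 S129 reads in replicates 1 to 4 and no CAST read, a ratio of at least 11.9-fold. Olfr316 on chromosome 11 had 18, 10, 6 and 11 CAST reads and no S129 read, a ratio of at least 15.6-fold in favour of CAST. Olfr49 on chromosome 14 had 13, 9, 2 and 6 CAST reads, and Olfr855 on chromosome 9 had 5, 5, 8 and 3. These genes were named for having reads in all 4 columns of a single allele and none in the other, so their columns cannot overlap. Olfr1342, Olfr968, Olfr466, Olfr1350 and Olfr373 rested on 5 to 9 reads each.

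When all 8 columns were ranked, 14 members (10.5%) had every S129 value above every CAST value, against 19.7% of the 19344 genes above 0 in at least 2 columns. The reverse held for 9 members (6.77%), against 17.7%. Both shares of the members lay below those of the table. A gene can meet either criterion only if every column of its higher allele is above 0. The 40 members above 0 in 2 columns and the 27 above 0 in 3 columns therefore could not meet it, whatever their allele ratio. For this reason the lower shares cannot show whether the alleles of the members differ less often than those of other genes. Among the 34 members with at least 20 reads, the exact 95% interval of the S129 share lay above 50% for 11, 3 of which belong to the chromosome 19 group, and below 50% for 8. The 15 others had intervals that included 50%. Of 15360 autosomal genes with at least 20 recovered reads, the interval lay above 50% for 38.6% and below 50% for 33.5%, with a median of 2003 reads per gene against 37 for these members.

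**Figure D3:**
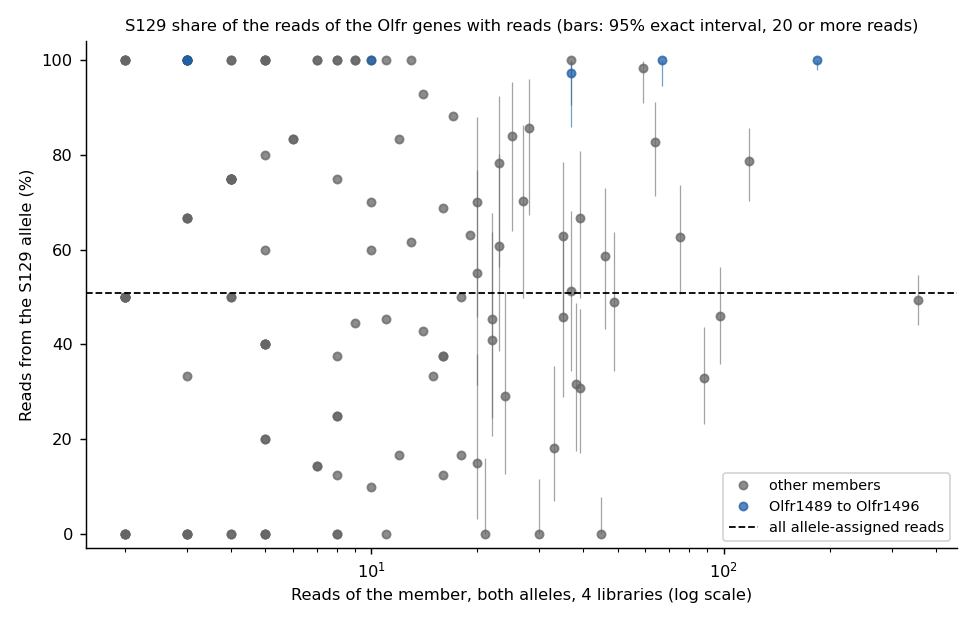
Share of reads from the S129 allele (vertical axis, %) against the total number of reads (horizontal axis, log scale) of each of the 133 members, with exact 95% intervals for members with 20 reads or more. The chromosome 19 group (blue) sits near 100% at up to 184 reads, the dashed line marks the share of all assigned reads, and Olfr985, the point with 356 reads, lies at 49.4%.

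The limma test of S129 minus CAST within libraries, on log2(RPKM+0.1), covered genes whose allele means summed to at least 1 RPKM. Of 13341 such genes, 62.7% had an adjusted p under 0.05, with S129 higher in 31.4% and CAST higher in 31.3%. Chromosome X, of which there is no CAST copy, gave 464 of the S129 calls, and with the columns rescaled to a single sum the shares were 35.0% and 25.5%. Only 2 members reached this level, and the only call was Olfr1494. For Olfr985 the difference lay within the spread of the 4 libraries (log2 difference -0.048, standard error 0.12, adjusted p = 0.745 from limma, S129 higher in 2 of 4 libraries). Olfr1494 was called (log2 difference 3.73, standard error 0.17, adjusted p = 0.00012 from limma, S129 higher in 4 of 4 libraries), but it reached the level through its S129 allele alone and so had to differ. On this scale a difference from a value of 0 depends on the added 0.1 RPKM.

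With the level lowered to 0.2 RPKM, 13 members were tested. Of 16296 genes at this level, 54.8% were called in either direction and 28.0% with S129 higher, while of the members 6 were called, all with S129 higher. Of these 6, 5 passed the level on S129 alone, namely Olfr1491, Olfr1494, Olfr1495, Olfr287 and Olfr31, so their calls are no evidence on the family. The remaining call was Olfr510 on chromosome 7, with 23, 11, 12 and 7 S129 reads against 4, 1, 4 and 2 CAST reads. Its log2 difference was 0.99 (standard error 0.12, adjusted p = 0.0039 from limma, S129 higher in 4 of 4 libraries). Olfr510 also reached the level mostly through S129, with means of 0.183 RPKM on S129 and 0.041 RPKM on CAST. Its call is therefore no evidence on the family either. The 7 others were not called. For Olfr543 the adjusted p was 0.079 (limma, log2 difference -0.68, standard error 0.25). Its CAST columns were higher in every library, though with equal reads in replicate 4. With no filter, all 133 members were tested and 18 were called, 11 with S129 higher and 7 with CAST higher. Of 20243 genes, 42.7% were called in either direction, 22.1% with S129 higher and 20.6% with CAST higher. The called members include genes with a mean of 0 on the other allele, such as Olfr1350 on 5 CAST reads and Olfr466 on 8. Such genes met the rule on members through their higher allele alone, so these calls are no evidence on the family.

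The members were spread unevenly over the genome. Chromosome 2, which holds 282 Olfr genes, more than any other chromosome, had 5 members (1.77%) and 95.7% of its Olfr genes at 0. Chromosome 9 had 30 members of 131 (22.9%), chromosome 7 had 30 of 237 (12.7%), chromosome 19 had 16 of 62 (25.8%) and chromosome 10 had 3 of 68 (4.41%). Shares were higher on chromosome 4 (7 of 24, 29.2%), chromosome 8 (2 of 5) and chromosome 15 (4 of 9, 44.4%). With only the Olfr genes whose exons exceed 2000 bp, chromosome 2 still had 2.46%, chromosome 9 27.0% and chromosome 19 29.5%. On the X chromosome, of which the male cells carry only the S129 copy, Olfr1324 was the single member, with 3 S129 reads.

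**Figure D4:**
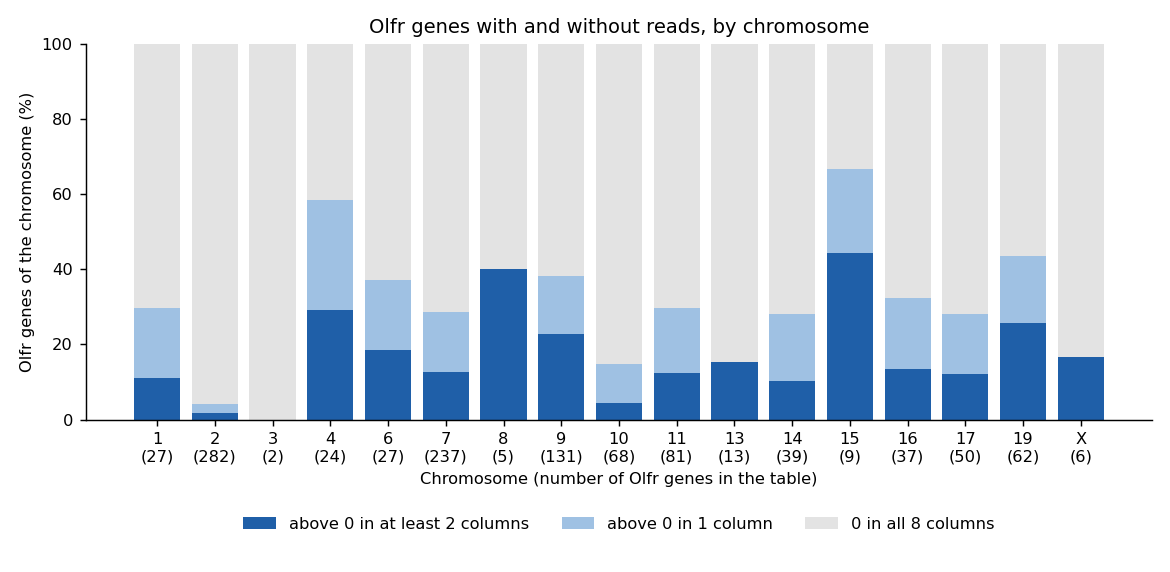
Share of the Olfr genes of each chromosome (vertical axis, %) that were above 0 in at least 2 columns (dark blue), in 1 column (light blue) or in none (grey), with the number of Olfr genes in parentheses. Chromosome 2 has 1.77% in dark blue among 282 genes, and chromosomes 9 and 19 have 22.9% and 25.8%.

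When Olfr genes less than 500 kb apart were joined, they formed 54 clusters or single genes, of which 40 held a member. The cluster at chr9:37708964-40190134 held Olfr985 and Olfr986 and 23 members in all among 96 genes. The largest cluster without a member, at chr14:49894258-51074435, had 28 Olfr genes. The largest cluster of all, on chromosome 2, had 218 genes and a single member.

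Members also lay closer to expressed genes than the Olfr genes at 0 did. The median distance to the nearest gene that is no chemoreceptor and had at least 1 RPKM was 107.3 kb for members, 161.0 kb for genes in 1 column and 340.7 kb for genes at 0. Such a gene lay within 20 kb of 22 members (16.5%) and of 25 of the 829 genes at 0 (3.02%), and within 100 kb of 47.4% and 17.0%. This is a description of positions and was not tested, because neighbouring receptor genes share their surroundings. Chromosome 2 alone held 270 of the 829 genes at 0 and 5 members, and the median distance of its Olfr genes was 573.3 kb. The median exon length was 3171 bp for members and 2968 bp for genes at 0, and the share of members ranged from 7.14% of Olfr genes up to 1000 bp to 14.6% of those over 4000 bp. Reads per 1000 bp were 2.00 in the shortest and 0.420 in the longest of these classes.

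**Figure D5:**
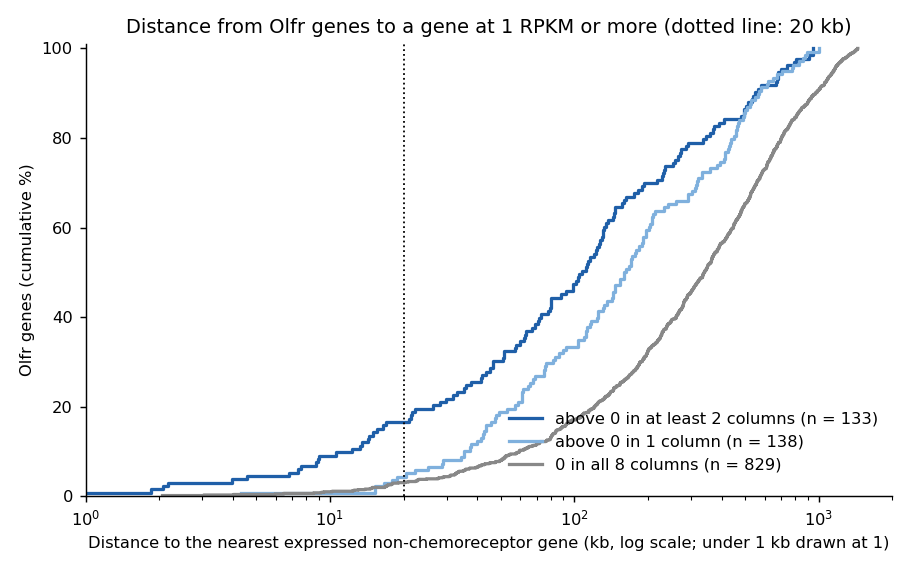
Cumulative share of Olfr genes (vertical axis, %) by the distance to the nearest non-chemoreceptor gene with at least 1 RPKM (horizontal axis, kb, log scale), for members, genes above 0 in 1 column and genes at 0 in all columns. The curve of the members lies left of that of the genes at 0 over most of the range, with 16.5% against 3.02% within 20 kb (dotted line).

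Other chemoreceptor families were counted by the same rule. Of the vomeronasal receptors, which detect pheromones, 13 of 206 Vmn1r genes and 23 of 121 Vmn2r genes were above 0 in at least 2 columns. The trace amine receptors gave 6 of 15 Taar genes, the bitter receptors 5 of 35 Tas2r genes and the sweet and umami receptors 3 of 3 Tas1r genes. The formyl peptide receptors gave 2 of 3 Fpr genes, and Ms4a, whose members act as receptors in a separate set of olfactory neurons and in immune cells, 13 of 18. Unlike in Olfr, single genes of 3 of these families passed 1 RPKM, namely Vmn1r53 at 1.93, Tas1r1 at 4.66 and Ms4a10 at 5.88 RPKM (means of 8 columns). Of 14 further Olfr symbols that are not Olfr and a number, such as Olfr856-ps1, 4 were above 0 in at least 2 columns.

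The machinery that works downstream of the receptors was largely low. Over all 24026 genes of the table, 11946 had a mean of at least 1 RPKM. Of 15 genes of olfactory signal transduction, 4 had at least 1 RPKM, namely Slc12a2, a chloride cotransporter, at 7.36 ± 0.62 RPKM, Ric8b, a chaperone of the olfactory G protein, at 3.47 ± 0.39 RPKM, Gnb1, a G protein beta subunit, at 3.14 ± 0.40 RPKM, and Adcy3, the adenylyl cyclase of the cilia, at 1.38 ± 0.13 RPKM (SD, n = 4 each). Gnal, the olfactory G protein alpha subunit, had 0.426 ± 0.0057 RPKM, and Omp, the olfactory marker protein, had 0.809 ± 0.16 RPKM. The other channel subunits, Cnga4 and Cngb1, had 0.041 ± 0.028 and 0.158 ± 0.030 RPKM (SD, n = 4). Of 6 genes for receptor trafficking, Reep1 and Reep6 passed 1 RPKM, with 2.08 ± 0.31 and 3.73 ± 0.65 RPKM (SD, n = 4). Hspa1a and Hspa1b, near-identical copies of a heat shock gene, were listed at 0 in all columns.

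Among 11 genes that control receptor choice, 5 had at least 1 RPKM, against 11946 of all 24026 genes. Ldb1, the adaptor that joins receptor enhancers, had 34.9 ± 6.1 RPKM and Kdm1a, the demethylase that opens the chosen gene, had 13.0 ± 1.0 RPKM (SD, n = 4). The factors that bind the receptor promoters were low. Lhx2 had 0.135 ± 0.12 RPKM with 0 in replicate 4, Ebf1 had 0.700 ± 0.059 RPKM, and Emx2 was at 0 in all columns. All 10 genes linked to the silencing of receptor clusters were above 1 RPKM, with a median of 38.1 RPKM. They ranged from Suv39h1, a histone H3K9 methyltransferase on the X chromosome, at 2.20 ± 0.23 RPKM (SD, n = 4) to Trim28, a corepressor, at 1197 to 1427 RPKM in the 4 libraries. Lbr, the lamin B receptor, which anchors heterochromatin at the nuclear envelope, had 44.8 ± 6.1 RPKM, and Cbx3 and Cbx5, HP1 proteins, had 201.0 ± 31.2 and 44.0 ± 2.3 RPKM (SD, n = 4).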

How the data were processed

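RNAseq of polyA RNA from 4 libraries of untreated F123-ESCs was analysed. The authors trimmed reads (Trimmomatic 0.40), aligned them with STAR to the N-masked mm10 genome, divided them with SNPsplit into S129 and CAST reads and deposited RPKM per gene and allele; the counting program and annotation are not given in the sources used here. They also deposited the average RPKM of each allele and its log10, which were not used. Members and gene lists were chosen with earlier results of these data known.

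Reads were recovered from the steps of the RPKM values with GENCODE M21 lengths (tolerance 0.02 reads), which succeeded for all 133 members and failed for 5.42% of genes above 0. Alleles were compared with limma 3.58.1 on log2(RPKM+0.1) differences within libraries, with the Benjamini-Hochberg adjustment over all genes tested. Both columns of a number are reads of a single library, and their deviations correlated at 0.105 to 0.195. Python 3.11.15 (pandas 2.3.3, scipy 1.17.1) and R 4.3.3 were used. Intervals are exact Poisson and Clopper-Pearson intervals. Coding sequences were compared with BLAST 2.17.0 over at least 80% of the length. Read recovery and limma were tested on simulated data. The named members are the 15 highest, those above 0 in all 8 columns, those with all 4 columns of a single allele, and the lowest and median ones; others were chosen after their values were seen. Alternatives were other rules, pseudocounts, filters, scalings, lengths, no replicate block and each library left out.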

Additional observations from a re-analysis of the deposited data

Results flagged for a closer look

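Among 90 sets of 4 library values tested, 7 held a library whose gap to the nearest other library exceeded Dixon's 95% critical share of the range, where chance gives about 1 in 20. The summed RPKM of the members was high in replicate 1, at 7.29 RPKM against 5.66 to 5.89 RPKM (gap 0.858 of the range). Olfr1033 was high in replicate 1, at 0.440 RPKM against 0 to 0.064 RPKM (0.854). Olfr855 was high in replicate 3, at 0.0942 RPKM against 0.0499 to 0.0565 RPKM (0.851). Olfr373 was high in replicate 4, at 0.0144 RPKM against 0.0043 to 0.0051 RPKM, which is a difference of 2 reads against 1 (0.923). The CAST reads of the chromosome 19 group were 1 in replicate 3 and 0 elsewhere (1 of the range), which a single read gives by construction. Cbx1 was low in replicate 4, at 41.5 RPKM against 57.0 to 59.3 RPKM (0.869), and Cbx3 likewise, at 154.4 against 214.4 to 219.4 RPKM (0.924).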

How the results depend on the processing

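The number of members depends on the rule, being 271 with at least 1 column above 0, 66 with at least 4, 11 with all 8, and 26 when a column counts only at 0.1 RPKM or more. The summed RPKM fell from 6.13 to 5.17 without Olfr985 and to 5.19 without the chromosome 19 group, which also moved the S129 share of reads from 59.2% to 53.7%. Full exon lengths moved the share of members at 0.5 RPKM or more from 1.50% to 0.752%. The gap in neighbours within reach between members and genes at 0 was 13.5 percentage points, 7.31 with neighbours at 5 RPKM or more and 22.1 within 50 kb. Members called between alleles numbered 1, 6 at the level of 0.2 RPKM and 18 with no filter (11 with S129 higher, 7 with CAST higher). These counts are no evidence on the family, since members could enter through a single allele. The difference of Olfr985 turned to 0.0087 with columns rescaled to a single sum, and ranged from -0.13 to 0.080 with each library left out, above 0 without replicate 2, never past the threshold. Without the replicate block, 6425 genes were called in place of 8369, with Olfr1494 still called and Olfr985 not. Without 1 library, 7 of 32 named members moved by over 1.5 times, Olfr1033 most, and the number of members stayed at 103 to 119. Depth limits all members with few reads, since 1 read decides whether a column is above 0. The alternatives with full exon lengths, without the chromosome 19 group, with other neighbour limits and with libraries left out of the S129 share were chosen after the data were seen.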
